A study of Xenopus laevis with 30 samples.

Results

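The comparison described here is the stage 11 gastrula against the stage 9 blastula of the clawed frog Xenopus laevis. It takes 4 of the 30 arrays of a developmental course that covers 15 stages from stage 2 to stage 48. The stage 11 group is the 2 arrays labelled stage 11, and the stage 9 group is the 2 arrays labelled stage 9. Both groups are wild type, of mixed sex, and each array was hybridised with total RNA pooled from several whole embryos. The arrays of a stage are biological replicates per the study's design text, but the labels do not say whether their pools shared parents. The p-values below rest on the spread between the arrays of a stage, taken over all 15 stages. Their precision is limited by 2 arrays a stage. A gene can thus fail the test through its spread at other stages although its arrays at stages 9 and 11 lie close together. A probe set, the group of array probes for 1 transcript, was compared if both arrays of either stage lay above the median signal of their own array. This rule took 17412 of 32539 probe sets, and 6415 of 9273 genes with a single symbol were represented, each by 1 probe set.

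The early cleavages of a frog embryo run on RNA and protein stored in the egg, and broad transcription from the embryo's genome begins at the mid-blastula transition. Stage 9 is the late blastula after that transition, and at stage 11 the blastopore has formed and mesoderm and endoderm are moving inside. The T-box factor VegT and Nodal ligands induce mesoderm and endoderm in the vegetal and equatorial cells, while the dorsal organizer secretes antagonists of BMP, Wnt and Nodal signals. During the same period maternal transcripts lose their poly(A) tails and are degraded. The comparison asks which transcripts differed between these stages.

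Array medians were 122 and 119 units at stage 11, against 130 and 131 units at stage 9, in the arbitrary signal units of the deposited values. The log2 signals of replicate arrays correlated at 0.993 at stage 11 and 0.991 at stage 9, and arrays of different stages at 0.712 to 0.725. The median absolute difference between replicates was 0.096 at stage 11 and 0.089 at stage 9 on the log2 scale. The 12 probe sets of the added poly-A control RNA were higher at stage 11 by a mean log2 difference of 0.24, and the 9 hybridisation controls by 0.50. Over all tested probe sets the log2 change had a median of -0.1, and of -0.34 when the arrays were scaled to the poly-A controls. All changes are therefore relative to the total signal of an array, and poly-A scaling lowers each of them by 0.24. A signal under its array's median is poorly measured, so where either array of the dimmer stage lies there the fold is given as "at least", set against that median, a floor chosen here in the absence of a measured background. In whole embryos, fewer cells of a type and less RNA per cell cannot be told apart. How far a signal depends on poly(A) tail length as well as on RNA amount was not tested. Markers of tissues that form later were mostly dim: 2 of 19 muscle genes at stage 11 and 3 of 19 at stage 9 were above the median on both arrays, with summed signals of 5274 and 5483 units at stage 11 against 4996 and 4686 at stage 9. Of 16 neuron genes, 4 were above it at stage 11 and 2 at stage 9, with sums of 1613 and 1655 units at stage 11 against 1020 and 1123 at stage 9. The part of these markers in the results was not tested. None of 19 blood and liver genes was above it at either stage, and their sums were 309 and 289 units at stage 11 against 273 and 278 at stage 9.

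Between the stages, 11832 of 17412 probe sets (68%) passed the test, limma's moderated test at a Benjamini-Hochberg adjusted p under 0.05. They comprised 5279 (30.3%) that were higher at stage 11 and 6553 (37.6%) that were lower. Rises made up 44.6% of the calls. They made up 28.9% of 9875 calls with poly-A scaling, 50.5% of 11164 with quantile normalization and 52% of 11804 with median centring, so which side holds more calls depends on the scaling. Among the 6415 genes, 1967 were higher (30.7%), 2506 were lower (39.1%) and 1942 did not pass. At least 2-fold changes that passed were counted for 596 genes upwards (9.29%) and 993 genes downwards (15.5%). The test takes its spread from all 30 arrays, and the fit on the 4 arrays alone called 2075 genes higher and 2747 lower. Where values are given for a gene that did not pass, the p-values of both fits are given. A gene dim at stage 9 could be tested only if it was bright at stage 11, and the reverse. List counts therefore describe the tested members and not whole families. Of the 6415 genes, 278 were under the median on both stage 9 arrays and 277 on both stage 11 arrays. Of the 278, 262 were higher, and of the 277, 253 were lower. The shares of each list below are to be set beside the 30.7% higher and 39.1% lower over all genes. A list with a larger part of such dim genes is not matched to these shares. Some genes stand in several lists, so the lists are not independent.

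**Figure D1:**
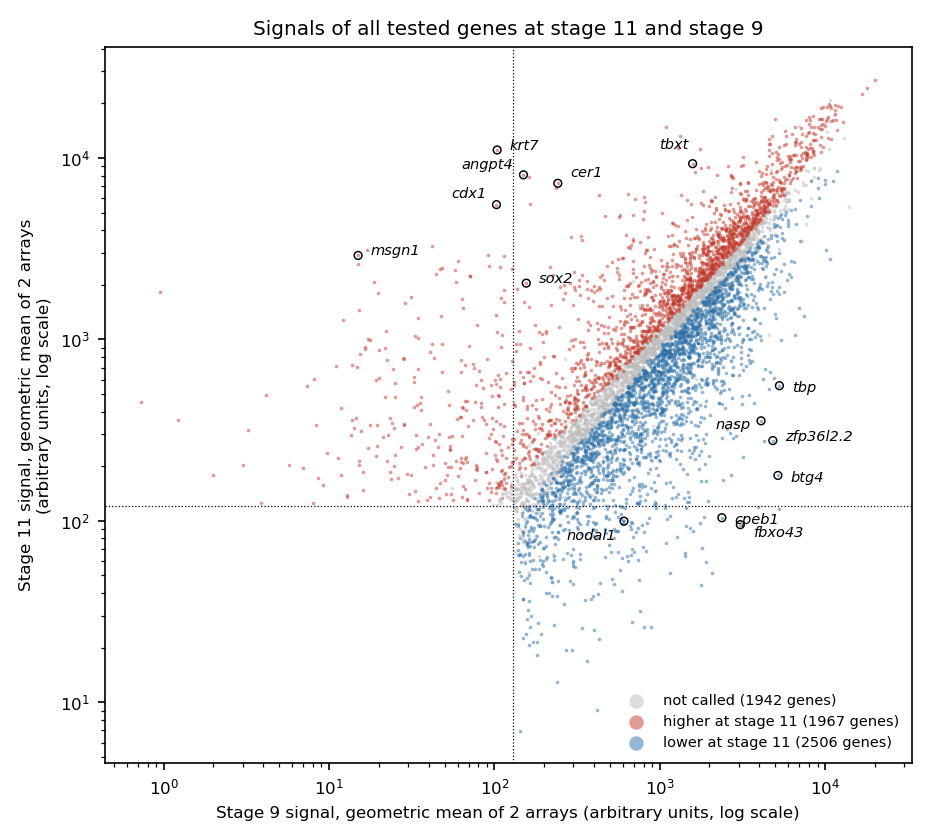
Geometric mean signals of the 6415 tested genes on the 2 stage 11 arrays (vertical, log scale, arbitrary units) against the 2 stage 9 arrays (horizontal, log scale), with dotted lines at the array medians. Genes higher at stage 11 (1967) lie above the diagonal and genes lower there (2506) below it, and the labelled genes are described in the text.

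Among genes measured above the median on all 4 arrays, the largest rise was that of angpt4, a member of the angiopoietin family of secreted ligands. Its signals were 8231 and 7923 units at stage 11, against 165 and 137 at stage 9 (53.7-fold higher, adjusted p = 6.9e-10). The next was post, with 7052 and 8840 units at stage 11, against 165 and 160 at stage 9 (48.6-fold higher, adjusted p = 1.9e-07). The solute carrier gene slc5a8.1 had 5161 and 6000 units at stage 11, against 166 and 161 at stage 9 (34-fold higher, adjusted p = 1.9e-16). In these 3 genes the stage 9 arrays lay little above the median, and both stage 11 arrays were far brighter. An N-acetyltransferase family gene, nat8.6, had 6111 and 6336 units at stage 11, against 465 and 397 at stage 9 (14.5-fold higher, adjusted p = 9.4e-05). The largest fall among such genes was that of btg4, which in the mouse egg brings the CCR4-NOT deadenylase to maternal mRNA. Its signals were 185 and 171 units at stage 11, against 5091 and 5281 at stage 9 (29.1-fold lower, log2 change -4.86 ± 0.36 SE, adjusted p = 6.5e-11). The kinase gene pim3 had 284 and 265 units at stage 11, against 4196 and 4351 at stage 9 (15.6-fold lower, adjusted p = 1.9e-18). The lipoprotein receptor gene vldlr had 128 and 129 units at stage 11, against 1966 and 1925 at stage 9 (15.1-fold lower, adjusted p = 1.7e-16). The stage 11 arrays of vldlr lay just above the median. The RhoA exchange factor needed for cytokinesis, ect2, had 234 and 217 units at stage 11, against 3040 and 3363 at stage 9 (14.2-fold lower, adjusted p = 2.3e-19). In none of these genes did a stage 11 array overlap a stage 9 array.

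The Nodal ligands nodal1 and nodal2, their inhibitor lefty and the Mix-type homeobox gene bix1.1 were lower in the gastrula. Of 31 listed Nodal signals, transducers and Mix-type genes 24 had a probe set and 21 were tested, of which 2 were higher (9.52%), 7 were lower (33.3%) and 12 did not pass. The share that fell was below the 39.1% over all genes, while the median log2 change was -0.91, against -0.08 over all genes. In the 4-array fit 4 were higher and 15 were lower, and the 7 falls became 4 without stage 11 replicate 2 or without stage 9 replicate 1. Among the ligands, nodal1 had 111 and 89 units at stage 11, against 608 and 609 at stage 9 (at least 5.05-fold lower, adjusted p = 0.0013). The signals of nodal2 were 229 and 190 units at stage 11, against 726 and 760 at stage 9 (3.57-fold lower, log2 change -1.84 ± 0.65 SE, adjusted p = 0.016). A secreted inhibitor of Nodal that Nodal itself induces, lefty, had 265 and 205 units at stage 11, against 893 and 801 at stage 9 (3.62-fold lower, log2 change -1.86 ± 0.63 SE, adjusted p = 0.013). All 3 were well above the median at stage 9, and at stage 11 nodal1 lay under it while nodal2 and lefty stayed above it. The other tested probe set of lefty did not pass. The Mix-type gene bix1.1 had 1021 and 982 units at stage 11, against 3594 and 3542 at stage 9 (3.56-fold lower, log2 change -1.83 ± 0.8 SE, adjusted p = 0.048). Of its relatives, named after their values were seen, bix1.2 had 739 and 812 units at stage 11, against 2698 and 2666 at stage 9 (log2 change -1.79 ± 1.36 SE, adjusted p = 0.25 in the 30-array fit and 2.0e-08 in the 4-array fit), whereas mixer, which specifies endoderm, had 2566 and 2204 units at stage 11, against 950 and 1038 at stage 9 (log2 change 1.26 ± 0.65 SE, adjusted p = 0.09 in the 30-array fit and 6.9e-07 in the 4-array fit). The stages were separated in opposite directions in bix1.2 and mixer, and of the 5 tested genes of this family (bix1.1, bix1.2, bix1.3, mix1 and mixer) bix1.1 passed in the 30-array fit. The call of bix1.1, close to the threshold, was lost on leaving out any 1 of the 4 arrays (log2 changes of -1.86 to -1.8), with median centring (-1.72), with each of the 3 other filters and without trended and robust settings (-1.83 in each). The call of nodal2 was lost without stage 11 replicate 2 (-1.7), stage 9 replicate 1 (-1.87) or stage 9 replicate 2 (-1.8), and that of lefty without stage 11 replicate 2 (-1.67), without stage 9 replicate 1 (-1.78) or with quantile normalization (-1.5).

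The intracellular partners of the pathway moved both ways. The maternal forkhead partner of Smad2, foxh1, had 1505 and 1655 units at stage 11, against 3784 and 3864 at stage 9 (2.42-fold lower, adjusted p = 1.4e-07). The transducer activated by Nodal receptors, smad2, had 1133 and 1026 units at stage 11, against 2735 and 2878 at stage 9 (2.6-fold lower, adjusted p = 1.4e-12). The shared partner of all receptor-activated Smads, smad4, had 542 and 601 units at stage 11, against 114 and 90.8 at stage 9 (at least 4.39-fold higher, adjusted p = 9.8e-12). The stage 9 arrays of smad4 lay under the median, whereas foxh1 and smad2 were bright at both stages. The type II receptor gene acvr2a had 555 and 540 units at stage 11, against 396 and 396 at stage 9 (1.38-fold higher, adjusted p = 4.5e-04). A T-box gene of mesoderm and endoderm, eomes, is counted with both germ layers and had 1065 and 940 units at stage 11, against 2672 and 2608 at stage 9 (2.64-fold lower, log2 change -1.4 ± 0.55 SE, adjusted p = 0.031). The other tested probe sets of acvr2a and eomes did not pass. The call of eomes was lost on leaving out any 1 of the 4 arrays (-1.49 to -1.31), and that of acvr2a with poly-A scaling (0.22).

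Most endoderm genes rose. Of 21 listed, 17 had a probe set and 15 were tested. Of these 12 were higher (80%), 1 was lower (eomes, 6.67%) and 2 did not pass (mixer and hhex), against 30.7% higher and 39.1% lower over all genes. The median log2 change was 3.39. On both stage 9 arrays 6 of the 15 were under the median, so those 6 could be tested only through stage 11. A secreted antagonist of Nodal, BMP and Wnt made by anterior endoderm, cer1, had 6788 and 7757 units at stage 11, against 242 and 243 at stage 9 (30-fold higher, log2 change 4.91 ± 0.59 SE, adjusted p = 2.8e-07). The GATA factors that drive the endodermal programme followed: gata4 had 2774 and 3051 units at stage 11, against 110 and 76.8 at stage 9 (at least 22.4-fold higher, adjusted p = 1.6e-15). The signals of gata5 were 2419 and 2639 units at stage 11, against 84.4 and 101 at stage 9 (at least 19.4-fold higher, adjusted p = 1.7e-18). Both were under the array median on both stage 9 arrays. An alpha-2-macroglobulin family gene known in the frog as endodermin, a2m, had 6474 and 7210 units at stage 11, against 277 and 202 at stage 9 (28.9-fold higher, log2 change 4.85 ± 0.28 SE, adjusted p = 1.1e-10). An HMG-box factor of endoderm, sox17b.1, was already bright in the blastula and had 3966 and 4055 units at stage 11, against 2070 and 1985 at stage 9 (1.98-fold higher, log2 change 0.98 ± 0.21 SE, adjusted p = 3.4e-04). Its other tested probe set did not pass. The maternal mRNA of vegt lies in the vegetal cortex, and the gene is transcribed again in the mesoderm. Its signals were 11001 and 10474 units at stage 11, against 7442 and 7577 at stage 9 (1.43-fold higher, log2 change 0.52 ± 0.18 SE, adjusted p = 0.014). The list thus held genes that were under the median in the blastula, such as gata4 and gata5, beside genes that were well above it at both stages. Named after their values were seen, foxa2, a forkhead factor of endoderm and midline, had 929 and 861 units at stage 11, against 20 and 23.8 at stage 9 (at least 6.88-fold higher, adjusted p = 2.4e-16), and the peptidase gene darmin, a frog endoderm marker, had 1917 and 1750 units at stage 11, against 0.695 and 1.31 at stage 9 (at least 14.1-fold higher, adjusted p = 4.6e-10). The call of vegt was lost without stage 11 replicate 1 (log2 change 0.48) or stage 9 replicate 1 (0.5), with poly-A scaling (0.27) and with quantile normalization (0.02).

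Mesoderm genes rose in most cases as well. Of 49 listed, 42 had a probe set and 37 were tested. Of these 28 were higher (75.7%), 3 were lower (8.11%) and 6 did not pass, with a median log2 change of 2.40. On both stage 9 arrays 16 of the 37 were under the median, so those 16 could be tested only through stage 11. The T-box gene brachyury that marks all early mesoderm, tbxt, had 9168 and 9448 units at stage 11, against 1616 and 1547 at stage 9 (5.89-fold higher, log2 change 2.56 ± 0.21 SE, adjusted p = 9.1e-10). The ventrolateral Wnt ligand, wnt8a, had 6006 and 5748 units at stage 11, against 1541 and 1384 at stage 9 (4.02-fold higher, log2 change 2.01 ± 0.54 SE, adjusted p = 0.0034). A secreted cystine-knot protein of the marginal zone, pnhd, had 5916 and 5999 units at stage 11, against 646 and 770 at stage 9 (8.45-fold higher, log2 change 3.08 ± 0.51 SE, adjusted p = 3.5e-05). These 3 were above the median in the blastula and 4.02 to 8.45-fold higher in the gastrula. Other genes were dim at stage 9. The presomitic mesoderm factor mesogenin, msgn1, had 2703 and 3119 units at stage 11, against 11.6 and 19.4 at stage 9 (at least 22.3-fold higher, adjusted p = 4.9e-12). A forkhead factor of paraxial mesoderm, foxc2, had 3177 and 3407 units at stage 11, against 34.2 and 51.3 at stage 9 (at least 25.3-fold higher, adjusted p = 9.1e-11). The caudal homeobox genes that pattern the posterior body were among them: cdx1 had 5174 and 5919 units at stage 11, against 82.7 and 128 at stage 9 (at least 42.5-fold higher, adjusted p = 3.0e-14). The signals of cdx4 were 2528 and 2874 units at stage 11, against 66 and 55.9 at stage 9 (at least 20.7-fold higher, adjusted p = 1.9e-06). All 4 of these genes were under the median on both stage 9 arrays. Of the myogenic factors, named after their values were seen, myf5 had 1271 and 1280 units at stage 11, against 14.8 and 9.85 at stage 9 (at least 9.81-fold higher, adjusted p = 1.1e-11). The signals of myod1 were 335 and 398 units at stage 11, against 50.6 and 69 at stage 9 (at least 2.81-fold higher, adjusted p = 3.5e-13).

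The mesoderm genes that fell were eomes, rbm24 and mespa. An RNA-binding protein of muscle, rbm24, had 271 and 267 units at stage 11, against 1844 and 1914 at stage 9 (6.98-fold lower, log2 change -2.8 ± 0.09 SE, adjusted p = 6.2e-17). It was already bright at stage 2 (1552 and 1676 units) and was bright again at stage 13 (3029 and 3364 units). A bHLH factor of the paraxial mesoderm, mespa, had 191 and 220 units at stage 11, against 460 and 516 at stage 9 (2.37-fold lower, log2 change -1.25 ± 0.26 SE, adjusted p = 2.5e-04), but its other tested probe set moved the other way and passed the test. The tested members that did not pass were ventx1.1, ventx1.2, ventx2.1, ventx3.2, fgf8 and gs17. Of these ventx1.2, a ventral homeobox gene, had 1237 and 487 units at stage 11, against 259 and 279 at stage 9 (log2 change 1.53 ± 0.74 SE, adjusted p = 0.075 in the 30-array fit and 0.021 in the 4-array fit). Its stage 11 arrays differed by more than 2-fold, yet both lay above the stage 9 arrays. It passed without stage 11 replicate 2 (2.2 on the log2 scale), with array weights by stage (1.53) and with 50 units added (1.38). The gene gs17, likewise named after its values were seen, had 14402 and 15623 units at stage 11, against 6945 and 6945 at stage 9 (log2 change 1.11 ± 0.93 SE, adjusted p = 0.3 in the 30-array fit and 1.0e-07 in the 4-array fit).

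**Figure D2:**
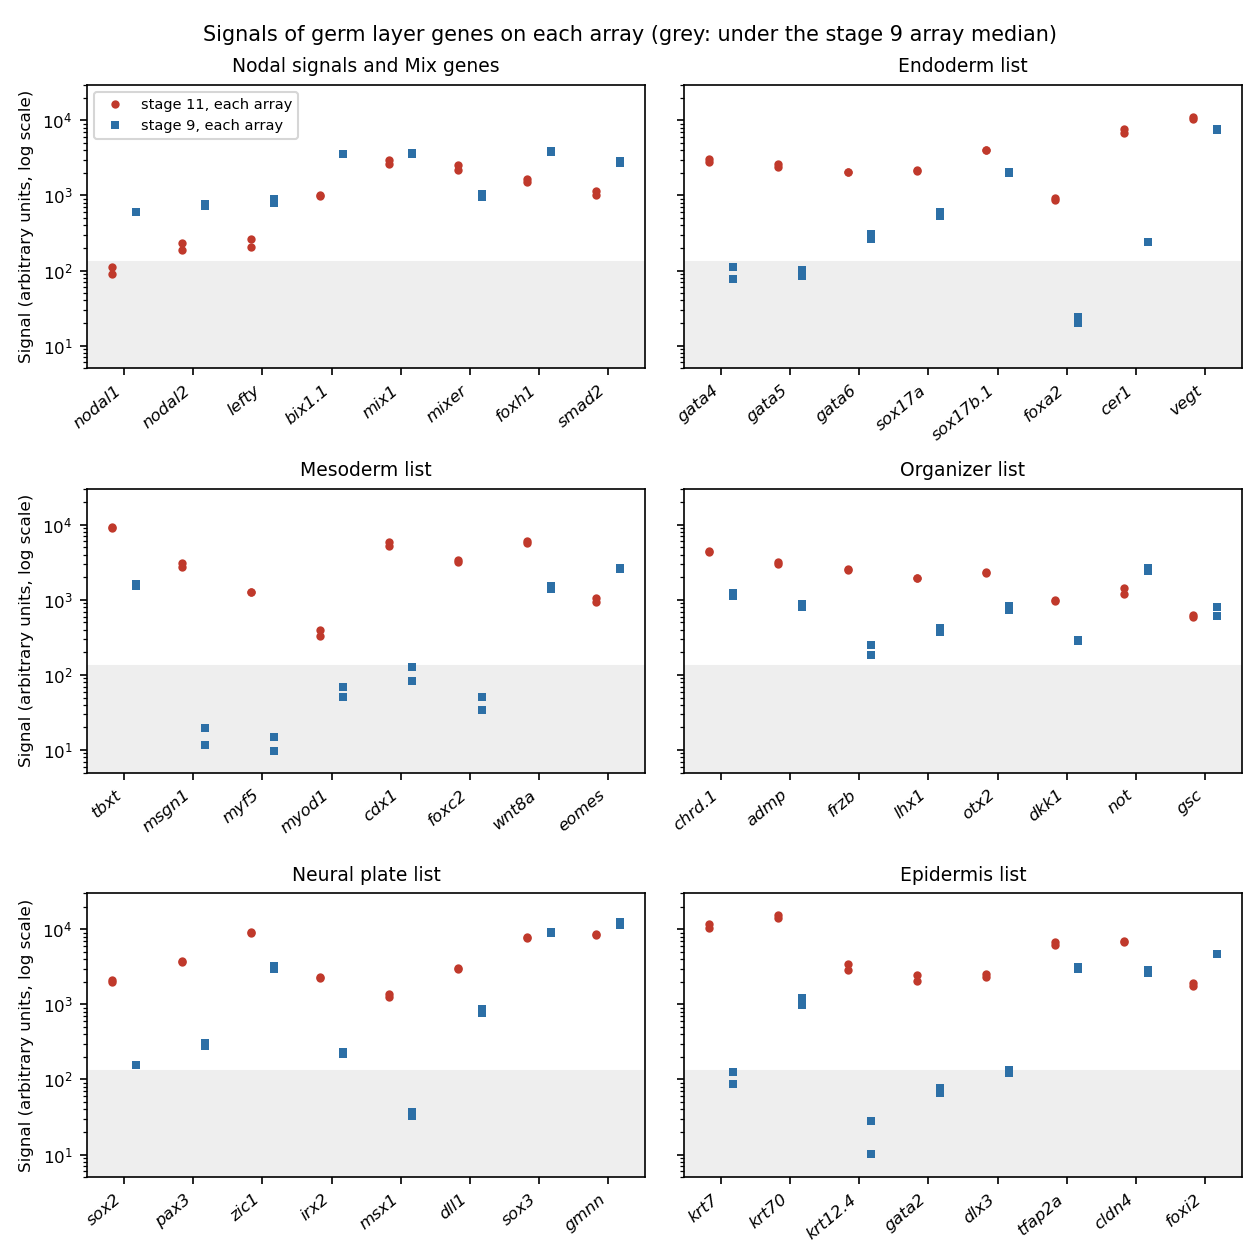
Signal on each array (vertical, log scale, arbitrary units) of 8 genes from each of 6 lists, with stage 11 arrays as circles on the left of each gene and stage 9 arrays as squares on the right. The grey band lies under the stage 9 array median. Most endoderm, mesoderm, neural plate and epidermis genes sit higher at stage 11, whereas nodal1, nodal2, lefty, bix1.1 and eomes sit lower.

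The organizer genes split. Of 30 listed, 26 had a probe set and 20 were tested. Of these 11 were higher (55%), 3 were lower (15%) and 6 did not pass, with a median log2 change of 1.69. All 11 rises are counted in other lists too: admp, cer1, chrd.1, frzb, frzb2, fst, fzd8, irx1, lhx1, otx2 and tbx2. On both stage 9 arrays 4 of the 20 were under the median. Secreted antagonists were among the rises: chrd.1, chordin, which binds BMP, had 4471 and 4305 units at stage 11, against 1242 and 1142 at stage 9 (3.68-fold higher, log2 change 1.88 ± 0.53 SE, adjusted p = 0.0049). A Wnt-binding protein, frzb, had 2551 and 2477 units at stage 11, against 254 and 183 at stage 9 (11.7-fold higher, log2 change 3.54 ± 0.17 SE, adjusted p = 7.2e-14). Both antagonists were above the median in the blastula. A BMP-like ligand of the organizer, admp, had 3241 and 3008 units at stage 11, against 882 and 806 at stage 9 (3.7-fold higher, log2 change 1.89 ± 0.41 SE, adjusted p = 4.6e-04). A homeobox gene of the head, otx2, had 2264 and 2383 units at stage 11, against 825 and 736 at stage 9 (2.98-fold higher, log2 change 1.58 ± 0.14 SE, adjusted p = 1.1e-09). A Wnt receptor, fzd8, had 3154 and 3200 units at stage 11, against 676 and 655 at stage 9 (4.77-fold higher, log2 change 2.26 ± 0.06 SE, adjusted p = 1.1e-17), with 1 other probe set moving the same way and 1 the opposite way. In these 5 genes both stage 11 arrays lay above both stage 9 arrays. By contrast, the notochord homeobox gene not had 1435 and 1185 units at stage 11, against 2659 and 2433 at stage 9 (1.95-fold lower, log2 change -0.96 ± 0.16 SE, adjusted p = 1.2e-05). A lysophosphatidic acid receptor gene, lpar6, had 1618 and 1488 units at stage 11, against 2980 and 3017 at stage 9 (1.93-fold lower, log2 change -0.95 ± 0.2 SE, adjusted p = 2.9e-04). Both genes stayed well above the median in the gastrula. None of the other tested probe sets of not, lpar6 and admp passed. Another BMP antagonist, noggin (nog), had 238 and 221 units at stage 11, against 329 and 269 at stage 9 (1.3-fold lower, log2 change -0.38 ± 0.12 SE, adjusted p = 0.008). The homeobox gene used to mark the organizer, goosecoid (gsc), was named after its values were seen. It had 627 and 584 units at stage 11, against 795 and 611 units at stage 9, and did not pass (adjusted p = 0.58 in the 30-array fit and 0.15 in the 4-array fit). The stage 11 array with 627 units lay above the lower stage 9 array, so the groups overlapped. A Wnt antagonist of the head organizer also named after its values were seen, dkk1, had 998 and 960 units at stage 11, against 288 and 287 at stage 9 (log2 change 1.77 ± 0.91 SE, adjusted p = 0.098 in the 30-array fit and 8.9e-08 in the 4-array fit). The call of nog was lost without stage 11 replicate 2 (-0.32), without stage 9 replicate 1 (-0.23), with median centring (-0.27) and with quantile normalization (-0.14).

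Most tested genes of both ectodermal lists, neural plate and epidermis, rose. Of 40 listed neural plate genes 34 had a probe set and 20 were tested. Of these 14 were higher (70%), 3 were lower (15%) and 3 did not pass, with a median log2 change of 1.75. On both stage 9 arrays 5 of the 20 were under the median. The HMG-box factor of neural progenitors, sox2, had 1959 and 2131 units at stage 11, against 155 and 157 at stage 9 (13.1-fold higher, log2 change 3.71 ± 0.07 SE, adjusted p = 3.5e-20). A factor of the neural plate border, pax3, had 3735 and 3615 units at stage 11, against 276 and 304 at stage 9 (12.7-fold higher, log2 change 3.67 ± 0.15 SE, adjusted p = 5.0e-14). A zinc finger factor of the neural plate, zic1, had 9272 and 8905 units at stage 11, against 3240 and 2980 at stage 9 (2.92-fold higher, log2 change 1.55 ± 0.12 SE, adjusted p = 1.4e-10). Of these 3, sox2 lay little above the median in the blastula, whereas zic1 was already bright. An Iroquois homeobox gene, irx2, had 2293 and 2243 units at stage 11, against 233 and 219 at stage 9 (10-fold higher, log2 change 3.33 ± 0.1 SE, adjusted p = 2.0e-17). A Notch ligand of early neurons, dll1, had 2928 and 3044 units at stage 11, against 856 and 768 at stage 9 (3.68-fold higher, log2 change 1.88 ± 0.21 SE, adjusted p = 2.8e-07). The falls of this list were each under 2-fold. The HMG-box factor present in the egg, sox3, had 7762 and 7679 units at stage 11, against 8912 and 9169 at stage 9 (1.17-fold lower, log2 change -0.23 ± 0.06 SE, adjusted p = 0.0014). Its other tested probe set did not pass. The signals of otx1 were 2472 and 2602 units at stage 11, against 3037 and 3205 at stage 9 (1.23-fold lower, log2 change -0.3 ± 0.12 SE, adjusted p = 0.039). The inhibitor of origin relicensing, geminin (gmnn), had 8438 and 8613 units at stage 11, against 11278 and 12366 at stage 9 (1.39-fold lower, log2 change -0.47 ± 0.08 SE, adjusted p = 2.8e-05), and its other probe set moved the other way and passed. The call of otx1 was lost on leaving out any 1 of the 4 arrays (-0.34 to -0.26), with median centring (-0.19), and with no filter or without trended and robust settings (-0.3 in each). That of sox3 was lost with median centring (-0.12).

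Of 41 listed epidermis genes 33 had a probe set and 26 were tested. Of these 20 were higher (76.9%), 3 were lower (11.5%) and 3 did not pass, with a median log2 change of 1.40. On both stage 9 arrays 10 of the 26 were under the median, so those 10 could be tested only through stage 11. Keratin genes, of the cytoskeleton of epithelia, were among the rises. The signals of krt7 were 10386 and 11806 units at stage 11, against 87.3 and 125 at stage 9 (at least 85.1-fold higher, adjusted p = 2.9e-15), with 2 other probe sets moving the same way and 1 the opposite way. The signals of krt12.4 were 2859 and 3397 units at stage 11, against 28 and 10.2 at stage 9 (at least 24-fold higher, adjusted p = 9.6e-05). The signals of krt70 were 14324 and 15466 units at stage 11, against 1202 and 981 at stage 9 (13.7-fold higher, log2 change 3.78 ± 0.77 SE, adjusted p = 4.0e-04). At stage 9 krt7 and krt12.4 were under the array median and krt70 was above it. The AP-2 factor of non-neural ectoderm, tfap2a, had 6090 and 6697 units at stage 11, against 2967 and 3119 at stage 9 (2.1-fold higher, log2 change 1.07 ± 0.32 SE, adjusted p = 0.0071). A claudin of tight junctions, cldn4, had 6687 and 6914 units at stage 11, against 2880 and 2603 at stage 9 (2.48-fold higher, log2 change 1.31 ± 0.08 SE, adjusted p = 5.0e-12). Both of these were already well above the median in the blastula. The regulators gata2 and dlx3, which BMP signalling induces in ectoderm, lay under or about the median at stage 9: gata2 had 2040 and 2476 units at stage 11, against 66.6 and 76.7 at stage 9 (at least 17.3-fold higher, adjusted p = 9.6e-16). The gene dlx3, named after its values were seen, had 2338 and 2546 units at stage 11, against 122 and 132 at stage 9 (at least 18.6-fold higher, adjusted p = 2.3e-05). The falls were foxi2, klf5 and grhl1. A maternal forkhead activator of ectoderm, foxi2, had 1932 and 1775 units at stage 11, against 4732 and 4626 at stage 9 (2.53-fold lower, log2 change -1.34 ± 0.53 SE, adjusted p = 0.035). The signals of klf5 were 343 and 317 units at stage 11, against 669 and 596 at stage 9 (1.91-fold lower, log2 change -0.94 ± 0.23 SE, adjusted p = 9.2e-04). The signals of grhl1 were 286 and 267 units at stage 11, against 537 and 547 at stage 9 (1.96-fold lower, log2 change -0.97 ± 0.22 SE, adjusted p = 5.4e-04). The call of foxi2 was lost on leaving out any 1 of the 4 arrays (-1.4 to -1.28) and with median centring (-1.23), and that of tfap2a with poly-A scaling (0.83). Since a whole embryo holds both domains, the lists do not show in which cells a gene was expressed.

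In the BMP pathway 27 of 38 listed genes were tested. Of these 15 were higher (55.6%), 5 were lower (18.5%) and 7 did not pass, with a median log2 change of 0.57. On both stage 9 arrays 6 of the 27 were under the median. Of the rises, admp, chrd.1, fst, bambi, szl, bmp4, gata2, msx1 and msx2 are counted in other lists too. Ligands diverged. The main zygotic ventral BMP, bmp4, had 1941 and 2284 units at stage 11, against 942 and 891 at stage 9 (2.3-fold higher, log2 change 1.2 ± 0.12 SE, adjusted p = 1.3e-08). A ligand also stored in the egg, bmp2, had 263 and 267 units at stage 11, against 1212 and 1298 at stage 9 (4.73-fold lower, log2 change -2.24 ± 0.09 SE, adjusted p = 5.3e-15). These ligands, both above the median at both stages, thus moved in opposite directions. The inhibitory Smads both fell: smad6 had 542 and 546 units at stage 11, against 1672 and 1902 at stage 9 (3.28-fold lower, log2 change -1.71 ± 0.08 SE, adjusted p = 2.9e-14). The signals of smad7 were 1061 and 1364 units at stage 11, against 1609 and 1901 at stage 9 (1.45-fold lower, log2 change -0.54 ± 0.11 SE, adjusted p = 1.4e-04). The receptor gene bmpr1a had 4929 and 5126 units at stage 11, against 3923 and 4166 at stage 9 (1.24-fold higher, log2 change 0.31 ± 0.07 SE, adjusted p = 5.0e-04), and its other probe sets were split, with 1 called in each direction. Its call was lost with quantile normalization (0.02) and poly-A scaling (0.07). Thus ligand, antagonist and inhibitor genes of the same pathway moved in different directions.

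In the Wnt pathway 36 of 64 listed genes were tested. Of these 23 were higher (63.9%), 4 were lower (11.1%) and 9 did not pass, with a median log2 change of 0.88. On both stage 9 arrays 11 of the 36 were under the median, so those 11 could be tested only through stage 11. Besides wnt8a and frzb, ctnnb1, beta-catenin, had 11660 and 12187 units at stage 11, against 6839 and 7041 at stage 9 (1.72-fold higher, log2 change 0.78 ± 0.05 SE, adjusted p = 2.2e-11). Its repressor partner, tcf7l1, had 3624 and 3623 units at stage 11, against 2782 and 2495 at stage 9 (1.38-fold higher, log2 change 0.46 ± 0.08 SE, adjusted p = 1.6e-05). The ligand stored in the egg, wnt11b, had 4482 and 4647 units at stage 11, against 3057 and 3069 at stage 9 (1.49-fold higher, log2 change 0.58 ± 0.14 SE, adjusted p = 0.0013). All 3 were bright at both stages and changed by less than 2-fold. The other tested probe set of tcf7l1 did not pass. Among the falls, dact1, which binds Dishevelled, had 2844 and 2837 units at stage 11, against 4836 and 5029 at stage 9 (1.74-fold lower, log2 change -0.8 ± 0.05 SE, adjusted p = 2.1e-11). A co-receptor, lrp5, had 89.2 and 87.7 units at stage 11, against 563 and 541 at stage 9 (at least 4.59-fold lower, adjusted p = 1.1e-14). A secreted antagonist, sfrp2, had 777 and 697 units at stage 11, against 1128 and 1114 at stage 9 (1.52-fold lower, log2 change -0.61 ± 0.24 SE, adjusted p = 0.032). The call of sfrp2 was lost on leaving out any 1 of the 4 arrays (-0.69 to -0.53), with quantile normalization (-0.44) and with median centring (-0.5), and those of tcf7l1 (0.22) and wnt11b (0.33) with poly-A scaling.

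In the FGF pathway 22 of 41 listed genes were tested. Of these 12 were higher (54.5%), 6 were lower (27.3%) and 4 did not pass, with a median log2 change of 0.36. On both stage 9 arrays 3 of the 22 were under the median. The ETS factors etv1 and etv4, which FGF signalling induces, were read from probe sets whose names differ only in the suffix (_x_at and _s_at). Whether these detect the same RNA was not tested, so their like changes are not separate results. For each gene the 2 other tested probe sets moved the same way. On its probe set etv1 had 4480 and 5223 units at stage 11, against 2299 and 2377 at stage 9 (2.07-fold higher, log2 change 1.05 ± 0.07 SE, adjusted p = 1.3e-11). The signals of etv4 were 6198 and 6532 units at stage 11, against 3010 and 3168 at stage 9 (2.06-fold higher, log2 change 1.04 ± 0.06 SE, adjusted p = 9.7e-13). The receptor gene fgfr4 had 2802 and 2922 units at stage 11, against 1541 and 1528 at stage 9 (1.86-fold higher, log2 change 0.9 ± 0.1 SE, adjusted p = 4.0e-08). The replicates of a stage lay side by side in these 3 genes, with no overlap between stages. The falls included dusp1, a phosphatase of MAP kinases, with 2020 and 1741 units at stage 11, against 3849 and 3988 at stage 9 (2.09-fold lower, log2 change -1.06 ± 0.13 SE, adjusted p = 2.3e-07). The ETS factor ets1 had 435 and 354 units at stage 11, against 984 and 1010 at stage 9 (2.54-fold lower, log2 change -1.34 ± 0.11 SE, adjusted p = 3.6e-10). An immediate early gene, fos, had 132 and 127 units at stage 11, against 272 and 308 at stage 9 (2.24-fold lower, log2 change -1.16 ± 0.49 SE, adjusted p = 0.043). The call of fos was lost on leaving out any 1 of the 4 arrays (-1.25 to -1.07), with quantile normalization (-0.86), with median centring (-1.05), with no filter (-1.16) and with 50 units added (-0.92).

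Of 33 listed Notch pathway genes 19 were tested: 10 were higher (52.6%), 7 were lower (36.8%) and 2 did not pass. The share that fell was near the 39.1% over all genes, and 30.7% of all genes rose. The median log2 change of 0.2 became -0.04 with poly-A scaling. On both stage 9 arrays 3 of the 19 were under the median. The receptor gene notch1 had 2946 and 3165 units at stage 11, against 2012 and 1982 at stage 9 (1.53-fold higher, log2 change 0.61 ± 0.07 SE, adjusted p = 1.3e-07). Its targets rose in part: nrarp had 5152 and 5834 units at stage 11, against 1869 and 1794 at stage 9 (2.99-fold higher, log2 change 1.58 ± 0.07 SE, adjusted p = 2.2e-14). The signals of hes4 were 3027 and 3591 units at stage 11, against 598 and 746 at stage 9 (4.94-fold higher, log2 change 2.3 ± 0.15 SE, adjusted p = 7.1e-11). The signals of hes5.1 were 1949 and 1668 units at stage 11, against 18.1 and 21.6 at stage 9 (at least 13.9-fold higher, adjusted p = 1.9e-06). Of these, hes5.1 was far under the median in the blastula. Others fell, among them hes7.1 with 994 and 1090 units at stage 11, against 2431 and 2247 at stage 9 (2.24-fold lower, log2 change -1.17 ± 0.34 SE, adjusted p = 0.0054) and hes2 with 28 and 27.6 units at stage 11, against 629 and 738 at stage 9 (at least 5.66-fold lower, adjusted p = 1.6e-16). The DNA-binding partner of the receptor, rbpj, had 2442 and 2193 units at stage 11, against 3287 and 3251 at stage 9 (1.41-fold lower, log2 change -0.5 ± 0.09 SE, adjusted p = 6.3e-05). With poly-A scaling notch1 did not pass (0.37). Hes genes therefore moved in both directions, though the other tested probe set of hes7.1 did not pass.

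Retinoic acid, the posteriorising signal made from vitamin A, had 9 of 23 listed genes tested. Of these 8 were higher (88.9%) and 1 was lower (11.1%), with a median log2 change of 1.99. On both stage 9 arrays 2 of the 9 were under the median. Enzymes of both synthesis and breakdown were among the rises. The enzyme that makes retinoic acid, aldh1a2, had 3743 and 3663 units at stage 11, against 335 and 334 at stage 9 (11.1-fold higher, log2 change 3.47 ± 0.1 SE, adjusted p = 2.0e-17). The enzyme that degrades it, cyp26a1, had 3241 and 3373 units at stage 11, against 1493 and 1484 at stage 9 (2.22-fold higher, log2 change 1.15 ± 0.09 SE, adjusted p = 4.4e-10). A retinal reductase, dhrs3, had 3511 and 4058 units at stage 11, against 596 and 651 at stage 9 (6.06-fold higher, log2 change 2.6 ± 0.07 SE, adjusted p = 8.2e-18). All 3 were above the median at stage 9. The receptor genes diverged: rarg had 5838 and 5755 units at stage 11, against 2127 and 1998 at stage 9 (2.81-fold higher, log2 change 1.49 ± 0.08 SE, adjusted p = 3.0e-13). The signals of rxrg were 207 and 187 units at stage 11, against 567 and 625 at stage 9 (3.03-fold lower, log2 change -1.6 ± 0.24 SE, adjusted p = 4.5e-06).

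Genes of gastrulation movements, that is adhesion, matrix and cytoskeleton, were 54 in the list, of which 37 were tested. Of these 23 were higher (62.2%), 4 were lower (10.8%) and 10 did not pass, with a median log2 change of 0.37. On both stage 9 arrays 3 of the 37 were under the median. With poly-A scaling 15 were higher, and with quantile normalization 8 were lower. A syndecan that acts in convergent extension, sdc4, had 8829 and 9003 units at stage 11, against 1828 and 2114 at stage 9 (4.54-fold higher, log2 change 2.18 ± 0.06 SE, adjusted p = 1.4e-17). The matrix protein on which mesoderm migrates, fibronectin (fn1), had 9306 and 10136 units at stage 11, against 4942 and 5296 at stage 9 (1.9-fold higher, log2 change 0.92 ± 0.07 SE, adjusted p = 4.9e-11). The C-cadherin of the frog blastula, cdh3, had 11406 and 12172 units at stage 11, against 6879 and 6327 at stage 9 (1.79-fold higher, log2 change 0.84 ± 0.05 SE, adjusted p = 1.7e-12). These genes were bright at both stages. A small GTPase of the cytoskeleton, rhoa, had 11718 and 12152 units at stage 11, against 8104 and 8196 at stage 9 (1.46-fold higher, log2 change 0.55 ± 0.05 SE, adjusted p = 6.9e-10). Among the falls, itga5, the alpha chain of a fibronectin receptor, had 229 and 205 units at stage 11, against 562 and 530 at stage 9 (2.52-fold lower, log2 change -1.33 ± 0.16 SE, adjusted p = 2.0e-07). A chemokine receptor, cxcr4, had 1881 and 1992 units at stage 11, against 4056 and 3927 at stage 9 (2.06-fold lower, log2 change -1.04 ± 0.09 SE, adjusted p = 7.8e-10). The other tested probe sets of itga5 and cxcr4 did not pass. Of the 3 other tested probe sets of sdc4, 1 passed, in the same direction. The call of rhoa was lost with quantile normalization (0.04) and poly-A scaling (0.31).

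**Figure D3:**
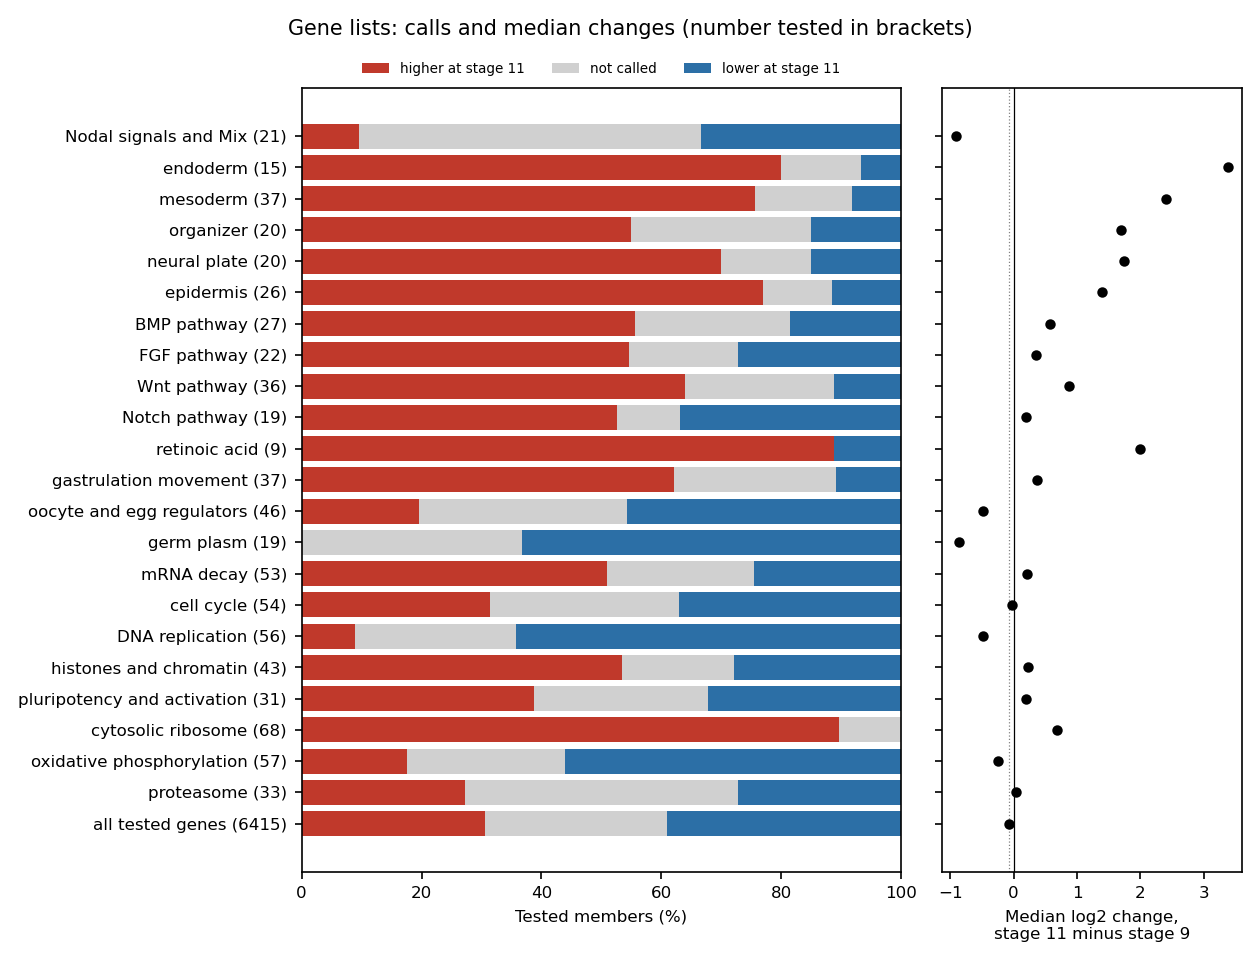
Share of the tested members of 22 lists and of all 6415 tested genes that were higher at stage 11 (red), not called (grey) or lower (blue), on the left, and their median log2 change, stage 11 minus stage 9, on the right. The endoderm list has the highest median (3.39), and the Nodal and germ plasm lists have the lowest (-0.91 and -0.86). The median for all genes (-0.08) is drawn as a dotted line. Of the 15 tested endoderm genes, 6 were under the median at stage 9 and could be tested only through stage 11.

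Among genes known from the oocyte and egg, btg4, zfp36l2.1, zfp36l2.2, cpeb1 and fbxo43 were each at least 17.4-fold lower. Of 73 listed, 50 had a probe set and 46 were tested: 9 were higher (19.6%), 21 were lower (45.7%) and 16 did not pass, against 30.7% higher and 39.1% lower over all genes, with a median log2 change of -0.48. Several RNA-binding regulators were among the falls. A zinc finger protein of the TTP family that binds AU-rich mRNA, zfp36l2.2, had 271 and 283 units at stage 11, against 4809 and 4856 at stage 9 (17.4-fold lower, log2 change -4.12 ± 1.01 SE, adjusted p = 0.0013). The signals of zfp36l2.1 were 127 and 112 units at stage 11, against 3853 and 4056 at stage 9 (at least 32.2-fold lower, adjusted p = 7.8e-06). A regulator of cytoplasmic polyadenylation in the oocyte, cpeb1, had 95.9 and 113 units at stage 11, against 2335 and 2418 at stage 9 (at least 19.7-fold lower, adjusted p = 4.6e-16). At stage 11 cpeb1 lay under the median on both arrays and zfp36l2.2 above it. The Emi2 protein that holds the egg in meiotic arrest, fbxo43, had 86.3 and 105 units at stage 11, against 2978 and 3172 at stage 9 (at least 25.5-fold lower, adjusted p = 1.6e-12). The kinase of the same arrest, mos, had 1529 and 1500 units at stage 11, against 3804 and 3920 at stage 9 (2.55-fold lower, log2 change -1.35 ± 0.14 SE, adjusted p = 2.7e-08). In each case both stage 11 arrays lay under both stage 9 arrays. Not every listed gene fell. The 9 rises include fbxo5, which is set below as the somatic relative of fbxo43, so its place in this list is open to doubt. A deadenylase subunit of CCR4-NOT, cnot6l, had 4297 and 4466 units at stage 11, against 2681 and 2848 at stage 9 (1.59-fold higher, log2 change 0.66 ± 0.06 SE, adjusted p = 2.4e-09). The oocyte cap-binding protein, eif4e1b, had 3801 and 4010 units at stage 11, against 2677 and 2781 at stage 9 (1.43-fold higher, log2 change 0.52 ± 0.09 SE, adjusted p = 3.6e-05). The linker histone of the egg, h1-8, had 4473 and 4157 units at stage 11, against 7377 and 7897 at stage 9 (log2 change -0.82 ± 0.91 SE, adjusted p = 0.44 in the 30-array fit and 1.1e-06 in the 4-array fit). With poly-A scaling eif4e1b did not pass (0.27).

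Germ plasm genes, whose mRNA or protein lies in the vegetal islands that form germ cells, included none that rose. Of 28 listed, 20 had a probe set and 19 were tested. Of these 12 were lower (63.2%, against 39.1% over all genes) and 7 did not pass, with a median log2 change of -0.86. The list shares ccno, grip2, sybu and tdrd6 with the oocyte and egg list. An RNA-binding protein that protects germ-cell mRNA, dnd1, had 672 and 695 units at stage 11, against 4267 and 4365 at stage 9 (6.31-fold lower, log2 change -2.66 ± 0.19 SE, adjusted p = 3.2e-11). A frog germ plasm protein, velo1, had 1039 and 1029 units at stage 11, against 3921 and 3597 at stage 9 (3.63-fold lower, log2 change -1.86 ± 0.55 SE, adjusted p = 0.006). The signals of germes were 1555 and 1481 units at stage 11, against 3619 and 3626 at stage 9 (2.39-fold lower, log2 change -1.25 ± 0.28 SE, adjusted p = 4.2e-04). All 3 were still above the median in the gastrula. The RNA-binding protein hermes, rbpms2, had 737 and 747 units at stage 11, against 2225 and 2167 at stage 9 (2.96-fold lower, log2 change -1.57 ± 0.16 SE, adjusted p = 1.6e-08). A DEAD-box helicase known in the frog as deadsouth, ddx25, had 1740 and 1694 units at stage 11, against 3199 and 2903 at stage 9 (1.78-fold lower, log2 change -0.83 ± 0.11 SE, adjusted p = 8.9e-07). Named after their values were seen, ddx4, the vasa helicase, and pgat, an RNA of the germ plasm, did not pass. The helicase gene had 992 and 867 units at stage 11, against 897 and 819 units at stage 9 (adjusted p = 0.55 in the 30-array fit and 0.27 in the 4-array fit). The pgat signals were 2613 and 2495 units at stage 11, against 2464 and 2226 units at stage 9 (adjusted p = 0.52 in the 30-array fit and 0.1 in the 4-array fit).

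Several proteins have 1 gene used in the oocyte or early embryo and a relative used later, and 23 such pairs were listed. Both genes were tested in 18 pairs: in 6 the first gene was lower and the relative higher, in 1 both were lower, in 3 both were higher, in 1 the first gene was higher and the relative lower, and in 7 at least 1 gene did not pass. The 6 pairs were fbxo43 and fbxo5, btg4 and btg1, patl2 and patl1, ccna1 and ccna2, lsm14b and lsm14a, and npm2 and npm1. The pair with the first gene higher and the relative lower was cdc25c and cdc25a. There the order is open to doubt, since cdc25a was bright at stage 2 (7072 and 7723 units). The same doubt holds for relatives in the 6 pairs. At stage 2 ccna2 had 9785 and 10081 units, npm1 6976 and 7657, and patl1 6281 and 6631. The relatives lsm14a, fbxo5 and btg1 were above the median there too, though fbxo5 (731 and 565 units) and btg1 (866 and 1013 units) were dimmer than at stage 9. The genes pou5f3.1 and foxi2 each stand in more than 1 pair, so the pairs are not independent. The somatic Emi1, fbxo5, had 3105 and 3188 units at stage 11, against 1519 and 1803 at stage 9 (1.9-fold higher, log2 change 0.93 ± 0.15 SE, adjusted p = 1.2e-05), although its other probe set moved the other way and passed. The signals of btg1 were 9483 and 10719 units at stage 11, against 3235 and 3146 at stage 9 (3.16-fold higher, log2 change 1.66 ± 0.07 SE, adjusted p = 6.1e-15). In both genes the stages were separate on the probe sets given. A translational repressor of oocytes, patl2, had 557 and 431 units at stage 11, against 3230 and 3070 at stage 9 (6.42-fold lower, log2 change -2.68 ± 0.76 SE, adjusted p = 0.0042). Its P-body relative, patl1, had 6774 and 6848 units at stage 11, against 5368 and 5525 at stage 9 (1.25-fold higher, log2 change 0.32 ± 0.07 SE, adjusted p = 3.9e-04), a direction that was -0.09 on the log2 scale with quantile normalization. The cyclin A of the egg, ccna1, had 2921 and 2633 units at stage 11, against 10284 and 11039 at stage 9 (3.84-fold lower, log2 change -1.94 ± 0.19 SE, adjusted p = 5.2e-09). It was still bright in the gastrula. The signals of ccna2 were 10774 and 11037 units at stage 11, against 8180 and 8819 at stage 9 (1.28-fold higher, log2 change 0.36 ± 0.07 SE, adjusted p = 1.3e-04), which was -0.12 with quantile normalization, and its other probe set moved the other way and passed. A nucleolar chaperone, npm1, had 11072 and 11676 units at stage 11, against 7908 and 8796 at stage 9 (1.36-fold higher, log2 change 0.45 ± 0.07 SE, adjusted p = 7.7e-06), which was -0.04 with quantile normalization. The other tested probe set of npm2 did not pass. With poly-A scaling patl1 (0.08), ccna2 (0.12) and npm1 (0.2) did not pass. The relative lsm14a, whose signals are not given here, did not pass with that scaling either, whereas fbxo5 and btg1 did. Probe sets of different genes cannot be set against each other in level, so the pairs are compared in direction only.

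The other pairs moved in several ways. The kinase that restrains Cdk1, wee1, had 1641 and 1829 units at stage 11, against 511 and 517 at stage 9 (3.37-fold higher, log2 change 1.75 ± 0.09 SE, adjusted p = 1.2e-13). Its relative wee2, known as an oocyte form in mammals, had 2082 and 1906 units at stage 11, against 2719 and 2800 at stage 9 (log2 change -0.47 ± 0.27 SE, adjusted p = 0.13 in the 30-array fit and 7.2e-05 in the 4-array fit). In the TATA-binding proteins both genes fell: tbp had 569 and 544 units at stage 11, against 5472 and 5119 at stage 9 (9.51-fold lower, log2 change -3.25 ± 0.08 SE, adjusted p = 2.1e-18). The vertebrate oocyte form, tbpl2, had 42.6 and 35 units at stage 11, against 261 and 221 at stage 9 (at least 2-fold lower, adjusted p = 0.02). On these arrays tbp was bright at stage 9, while tbpl2 lay under the median at stage 11. The phosphatase that drives the rapid cleavage cycles, cdc25a, had 2793 and 2598 units at stage 11, against 6215 and 6302 at stage 9 (2.32-fold lower, log2 change -1.22 ± 0.11 SE, adjusted p = 1.1e-09). Its relative cdc25c had 3938 and 3896 units at stage 11, against 3183 and 3336 at stage 9 (1.2-fold higher, log2 change 0.27 ± 0.07 SE, adjusted p = 0.0036). Of the Oct4-like POU factors, pou5f3.1 had 6124 and 6404 units at stage 11, against 1323 and 1366 at stage 9 (4.66-fold higher, log2 change 2.22 ± 0.48 SE, adjusted p = 5.4e-04). The signals of pou5f3.2 were 15840 and 14867 units at stage 11, against 8227 and 7742 at stage 9 (1.92-fold higher, log2 change 0.94 ± 0.28 SE, adjusted p = 0.0052). The blastula levels of both were already well above the median. The list of early transcription regulators that holds these genes had 31 of 39 tested, with 12 higher (38.7%), 10 lower (32.3%) and 9 that did not pass. Its median log2 change of 0.2 was -0.04 with poly-A scaling. The maternal member, pou5f3.3, had 1178 and 944 units at stage 11, against 4709 and 4503 at stage 9 (log2 change -2.13 ± 0.93 SE, adjusted p = 0.051 in the 30-array fit and 1.9e-07 in the 4-array fit). The gene pou5f3.2 is 1 of the 9 rises counted in the oocyte and egg list, although its arrays read only 248 and 220 units at stage 2. The call of tbpl2 was lost on leaving out any 1 of the 4 arrays (fitted log2 changes of -2.78 to -2.5), that of cdc25c with quantile normalization (0.08) and poly-A scaling (0.02), and that of pou5f3.2 with quantile normalization (0.31). The fall of pou5f3.3 passed under 7 of the alternatives, among them quantile normalization (-2.63), poly-A scaling (-2.37) and 50 units added (-2.07), and that of wee2 with quantile normalization (-0.64) and 50 units added (-0.46).

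**Figure D4:**
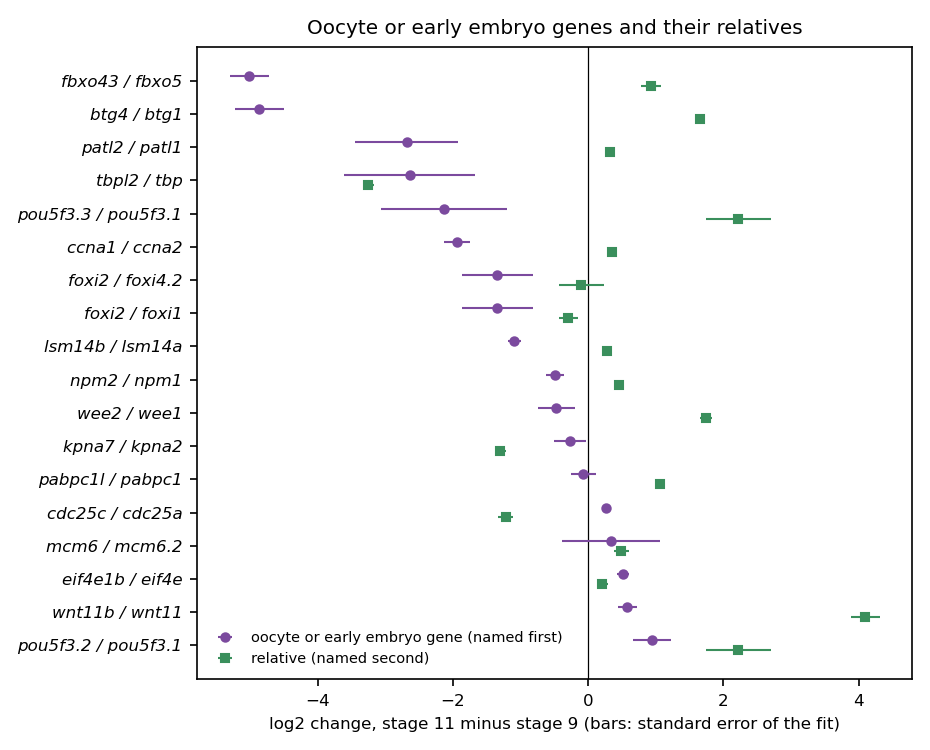
Fitted log2 change between stages (stage 11 minus stage 9, horizontal) of both genes of the 18 pairs with both genes tested. Circles are genes listed as the oocyte or early embryo form, squares are their relatives, and bars are standard errors of the fit. Values of genes under the array median at 1 stage (fbxo43, tbpl2 and wnt11) are fitted and no bounds. The genes fbxo43, btg4, patl2, ccna1, lsm14b and npm2 lie left of 0 while their relatives lie right of it.

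Among cell cycle genes, the cyclins ccnd1 and ccnb3 rose and chek1, e2f1 and fzr1 fell. Of 70 listed, 57 had a probe set and 54 were tested: 17 were higher (31.5%), 20 were lower (37%) and 17 did not pass, shares near those over all genes (30.7% and 39.1%), with a median log2 change of -0.03 that was 0.08 with median centring. The cyclin D of growth-regulated cycles, ccnd1, had 4694 and 4972 units at stage 11, against 679 and 708 at stage 9 (6.97-fold higher, log2 change 2.8 ± 0.11 SE, adjusted p = 2.2e-15). Its kinase, cdk4, had 5652 and 5336 units at stage 11, against 3622 and 3843 at stage 9 (1.47-fold higher, log2 change 0.56 ± 0.08 SE, adjusted p = 4.0e-06). A member of the chromosomal passenger complex, survivin (birc5), had 3519 and 3495 units at stage 11, against 6772 and 7275 at stage 9 (2-fold lower, log2 change -1 ± 0.22 SE, adjusted p = 4.8e-04). Both cyclin D and its kinase were thus higher, and survivin lower, at stage 11. The mitotic kinase, plk1, had 4298 and 4857 units at stage 11, against 5893 and 6082 at stage 9 (1.31-fold lower, log2 change -0.39 ± 0.08 SE, adjusted p = 2.2e-04). Named after their values were seen, ccnb3, a B-type cyclin, had 4846 and 4811 units at stage 11, against 579 and 567 at stage 9 (8.43-fold higher, log2 change 3.08 ± 0.1 SE, adjusted p = 6.6e-17). The Cdh1 activator of the anaphase-promoting complex, fzr1, had 126 and 117 units at stage 11, against 1060 and 1092 at stage 9 (at least 8.77-fold lower, adjusted p = 2.0e-17). At stage 11 fzr1 lay about the median. The checkpoint kinase Chk1, chek1, had 433 and 424 units at stage 11, against 1999 and 1746 at stage 9 (4.36-fold lower, log2 change -2.12 ± 0.09 SE, adjusted p = 1.1e-14). An activator of S-phase genes, e2f1, had 496 and 553 units at stage 11, against 2430 and 2467 at stage 9 (4.67-fold lower, log2 change -2.22 ± 0.17 SE, adjusted p = 1.1e-10). With poly-A scaling cdk4 did not pass (0.32).

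Of 63 listed DNA replication genes, 58 had a probe set and 56 were tested: 5 were higher (8.93%), 36 were lower (64.3%) and 15 did not pass, with a median log2 change of -0.48, which stayed below 0 with each of the 3 other scalings. A subunit of ribonucleotide reductase, rrm2.2, had 3277 and 2983 units at stage 11, against 9739 and 10504 at stage 9 (3.23-fold lower, log2 change -1.69 ± 0.08 SE, adjusted p = 3.0e-14). A loader of the MCM helicase, cdc6, had 7766 and 7159 units at stage 11, against 10779 and 11704 at stage 9 (1.51-fold lower, log2 change -0.59 ± 0.08 SE, adjusted p = 2.4e-06). A subunit of the single-strand binding complex, rpa2, had 2383 and 2404 units at stage 11, against 5287 and 5501 at stage 9 (2.25-fold lower, log2 change -1.17 ± 0.07 SE, adjusted p = 1.0e-12). These 3 stayed well above the median. The activator of the Cdc7 kinase, dbf4, had 2860 and 2783 units at stage 11, against 3433 and 3430 at stage 9 (1.22-fold lower, log2 change -0.28 ± 0.07 SE, adjusted p = 0.0021). Named after their values were seen, cdc7, the kinase itself, had 88.5 and 95.4 units at stage 11, against 709 and 778 at stage 9 (at least 6.17-fold lower, adjusted p = 2.1e-13). A cofactor of the replicative helicase, cdc45, had 783 and 732 units at stage 11, against 2636 and 2782 at stage 9 (3.58-fold lower, log2 change -1.84 ± 0.11 SE, adjusted p = 3.7e-12). At stage 11 cdc7 was under the median and cdc45 above it. The signals of mcm10 were 310 and 397 units at stage 11, against 1755 and 1773 at stage 9 (5.03-fold lower, log2 change -2.33 ± 0.11 SE, adjusted p = 4.1e-14). A subunit of the MCM ring, mcm4, had 1255 and 1318 units at stage 11, against 3254 and 3161 at stage 9 (2.49-fold lower, log2 change -1.32 ± 0.06 SE, adjusted p = 1.3e-14). Another subunit of the ring, mcm6.2, was among the rises with 383 and 485 units at stage 11, against 310 and 303 at stage 9 (1.41-fold higher, log2 change 0.49 ± 0.11 SE, adjusted p = 6.3e-04). Of these falls cdc7, cdc45, mcm10 and dbf4 act when origins fire. The call of dbf4 was lost with median centring (-0.17), and that of mcm6.2 with poly-A scaling (0.25).

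The machinery of mRNA decay was mixed, as 27 of 53 tested members of 73 listed were higher (50.9%), 13 were lower (24.5%) and 13 did not pass. Its median log2 change was 0.21, and -0.04 with poly-A scaling. A further TTP-family gene, zfp36l2, had 5820 and 5926 units at stage 11, against 4481 and 4560 at stage 9 (1.3-fold higher, log2 change 0.38 ± 0.06 SE, adjusted p = 6.5e-06). The poly(A)-specific ribonuclease that deadenylates maternal mRNA in frog oocytes, parn, had 443 and 452 units at stage 11, against 2451 and 2150 at stage 9 (5.13-fold lower, log2 change -2.36 ± 0.1 SE, adjusted p = 4.6e-15). A factor of nonsense-mediated decay, upf2, had 714 and 633 units at stage 11, against 1090 and 1091 at stage 9 (1.62-fold lower, log2 change -0.7 ± 0.08 SE, adjusted p = 3.4e-08). All 3 were above the median on every array. The genes zfp36l1 and ago2 were named after their values were seen. The TTP-family gene zfp36l1 had 2741 and 2611 units at stage 11, against 537 and 488 at stage 9 (5.23-fold higher, log2 change 2.39 ± 0.12 SE, adjusted p = 1.6e-13), although its other probe set moved the other way, and ago2, the Argonaute that slices targets, had 617 and 590 units at stage 11, against 105 and 112 at stage 9 (at least 4.64-fold higher, adjusted p = 4.6e-13). Within the TTP family zfp36l2.1 and zfp36l2.2 were therefore lower and zfp36l1 and zfp36l2 higher in the gastrula. The call of zfp36l2 was lost with quantile normalization (0.05) and poly-A scaling (0.14).

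Among histones and chromatin factors 43 of 68 listed were tested: 23 were higher (53.5%), 12 were lower (27.9%) and 8 did not pass. The median log2 change of 0.23 was -0.01 with poly-A scaling. High mobility group genes were among the rises: hmgb2 had 17944 and 20382 units at stage 11, against 9721 and 10969 at stage 9 (1.85-fold higher, log2 change 0.89 ± 0.07 SE, adjusted p = 4.7e-10). The signals of hmgn1 were 19083 and 19709 units at stage 11, against 10876 and 10473 at stage 9 (1.82-fold higher, log2 change 0.86 ± 0.07 SE, adjusted p = 3.0e-10). The replacement histone gene h3-3b had 15841 and 16861 units at stage 11, against 9188 and 9276 at stage 9 (1.77-fold higher, log2 change 0.82 ± 0.06 SE, adjusted p = 7.9e-11). All 3 were bright at both stages. A histone chaperone that holds the store of H3 and H4, nasp, had 328 and 385 units at stage 11, against 4048 and 4150 at stage 9 (11.5-fold lower, log2 change -3.53 ± 0.12 SE, adjusted p = 1.7e-16). The maintenance DNA methyltransferase, dnmt1, had 1652 and 1672 units at stage 11, against 4638 and 4647 at stage 9 (2.79-fold lower, log2 change -1.48 ± 0.06 SE, adjusted p = 1.0e-14). An ISWI remodeller, smarca5, had 4394 and 4340 units at stage 11, against 5918 and 6029 at stage 9 (1.37-fold lower, log2 change -0.45 ± 0.06 SE, adjusted p = 2.1e-06). Of these 3, nasp fell furthest. A histone deacetylase named after its values were seen, hdac2, had 170 and 125 units at stage 11, against 986 and 895 at stage 9 (6.44-fold lower, log2 change -2.69 ± 0.12 SE, adjusted p = 1.9e-14).

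Transcripts of the cytosolic ribosome rose almost throughout. All 71 with a symbol of this family had a probe set and 68 were tested. Of these 61 were higher (89.7%, against 30.7% over all genes), none was lower and 7 did not pass. The median log2 change was 0.69, or 0.45 with poly-A scaling. With quantile normalization 3 were lower. With probe sets of the suffixes _s_at, _x_at and _a_at left out, 26 were higher. That fit leaves out every gene whose chosen probe set has such a suffix, among them rps2, rps19 and rps3a given below. Its 26 rises are therefore not out of 68. In the 4-array fit 62 were higher and none lower. The signals of rps2 were 7512 and 8652 units at stage 11, against 2628 and 2799 at stage 9 (2.97-fold higher, log2 change 1.57 ± 0.08 SE, adjusted p = 1.3e-13). The signals of rps19 were 9753 and 10674 units at stage 11, against 4614 and 4598 at stage 9 (2.22-fold higher, log2 change 1.15 ± 0.06 SE, adjusted p = 7.8e-13). The signals of rps3a were 8302 and 9051 units at stage 11, against 4400 and 4345 at stage 9 (1.98-fold higher, log2 change 0.99 ± 0.07 SE, adjusted p = 6.0e-11). Each was bright at both stages. For 22 of the 68 the rise was at least 2-fold. Genes of oxidative phosphorylation were taken by symbol, assembly factors included, and 57 of 58 were tested. Of these 10 were higher (17.5%), 32 were lower (56.1%) and 15 did not pass, with a median log2 change of -0.25. A subunit of cytochrome c oxidase, cox5b.2, had 776 and 741 units at stage 11, against 3700 and 3512 at stage 9 (4.75-fold lower, log2 change -2.25 ± 0.11 SE, adjusted p = 1.1e-13). An assembly factor of complex I, ndufaf4, had 959 and 1022 units at stage 11, against 1936 and 2062 at stage 9 (2.02-fold lower, log2 change -1.01 ± 0.08 SE, adjusted p = 1.9e-10). A subunit of the same complex, ndufc2, had 1607 and 1825 units at stage 11, against 741 and 722 at stage 9 (2.34-fold higher, log2 change 1.23 ± 0.08 SE, adjusted p = 9.1e-12). Genes with proteasome symbols were even, with 9 of 33 higher (27.3%), 9 lower (27.3%) and 15 that did not pass, against 30.7% higher and 39.1% lower over all genes. They too were taken by symbol, psmc3ip among them, so not all need be subunits.

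The signals at neighbouring stages show when these RNAs read above the array median, with the limit on tail length given above. These signals do not enter the log2 changes. They do enter the spread of the test and the choice of probe set, so the calls are not independent of them. Of the 1967 genes that rose, 1574 (80%) were above the array median on every array of stages 2 and 5, against 92.6% of the 1942 genes that did not pass. A further 326 (16.6%) were under it on every such array, as were 3.24% of the genes that did not pass, and 217 of these were also under it on both stage 9 arrays. These 217 newly bright genes could be tested only through stage 11. Of them 207 (95.4%) were above the median on both arrays of stage 13, against 99.2% of all rises. Of the 217, 15 (6.91%) had their highest signal of all 15 stages at stage 11, against 22.5% of all rises. The gene gata4 was among these 15, with 2774 and 3051 units at stage 11 and 1220 and 1196 units at stage 13. Of the 2506 genes that fell, 2445 (97.6%) were above the median at stages 2 and 5, a share not far from the 92.6% of genes that did not pass. The highest signal of a fallen gene lay at stage 2 in 723 (28.9%), stage 5 in 539 (21.5%), stage 9 in 512 (20.4%) and stage 48 in 244 (9.74%). Among the 2445, 225 were under the median on both stage 11 arrays, and at stage 13 156 of those remained under it on both arrays, while 52 were above it on both.

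A small group had another course. It comprised 26 genes that fell and were under the median at stages 2 and 5 (1.04% of the falls, against 3.24% of the genes that did not pass). All 26 were above it at stage 9, and 15 (57.7%) had their highest signal of the course there, against 20.4% of all falls. Choosing genes dim before stage 9 and lower after it favours a high at stage 9, so that share is no separate result. The genes nodal1, nodal2, lefty, bix1.1, eomes, hes7.1, lpar6 and cxcr4 belonged to it. The signals of cxcr4 were 51 and 40.6 units at stage 2, 4056 and 3927 units at stage 9 and 1881 and 1992 units at stage 11. The gene moap1, named after its values were seen, had 3.8 and 11.9 units at stage 2, 5129 and 4590 units at stage 9 and 1612 and 1979 units at stage 11. The gene btg4 had another course, with 13342 and 14314 units at stage 2 and 50.5 and 67.2 units at stage 13.

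**Figure D5:**
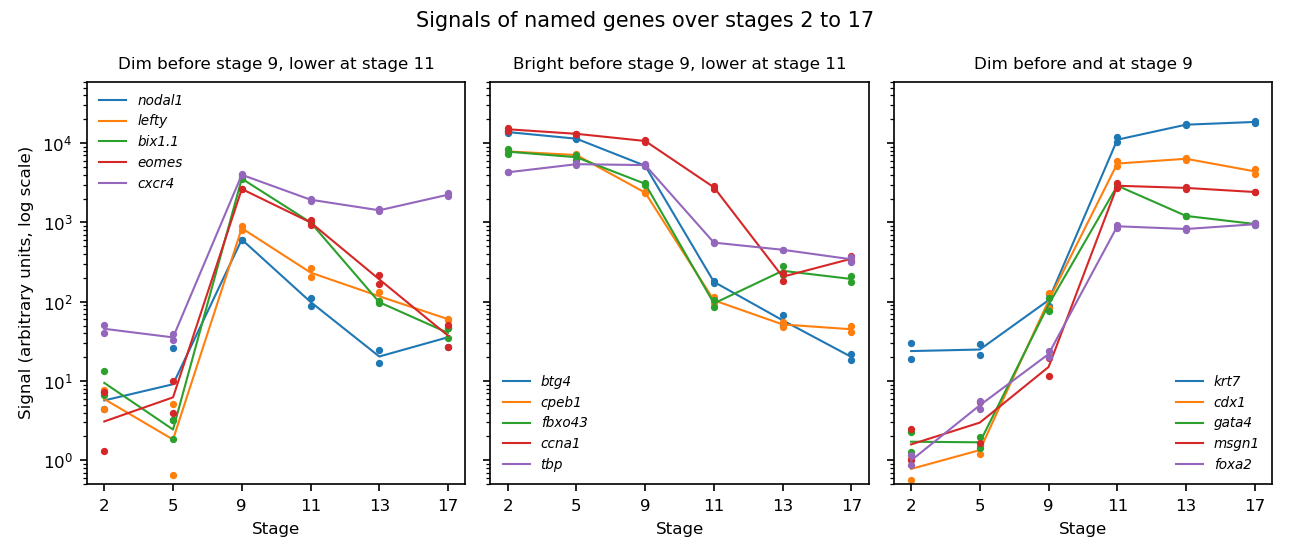
Signals (vertical, log scale, arbitrary units) at stages 2, 5, 9, 11, 13 and 17 of 5 genes highest at stage 9, 5 genes bright before stage 9, and 5 genes under the median until stage 9. Points are single arrays and lines join geometric means. In the plot nodal1, lefty, bix1.1 and eomes are brightest at stage 9, btg4, cpeb1 and fbxo43 drop between stages 9 and 11, and krt7 and cdx1 climb between the same stages.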

How the data were processed

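RNA from whole embryos was prepared with a lipid tissue kit and labelled in 1 cycle for the Affymetrix X. laevis 2.0 array, per the labels' protocols. The deposited values are MAS5 signal intensities, per the submitters' processing notes, with a version not given in the sources used here. All 30 arrays have the same 2% trimmed mean, so the authors' scaling removes any difference in total signal between stages. MAS5 detection calls were not used here.

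Of 32635 probe sets 96 are controls. GEO's platform annotation gave 1 symbol to 15495 of the others, several to 279 and none to 16765. Names were updated through Entrez IDs in RefSeq's table of assembly Xenopus_laevis_v10.1, which held 15384 and renamed 2. A gene is its probe set with the highest mean log2 signal over the 30 arrays, with L and S copies joined.

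Log2 signals of all 30 arrays were fitted with limma 3.58.1 (R 4.3.3), 1 mean a stage and 15 residual degrees of freedom, with trended and robust eBayes over the 17412 tested probe sets. Changes are stage 11 minus stage 9. The script was tested on simulated data. Tables and plots used Python 3.11.15, pandas 2.3.3 and matplotlib 3.10.9.

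Genes were named by ranks (the 8 largest rises and falls above the median on all 4 arrays, and the 8 brightest of those under it at 1 stage), by list (up to 6 called members a direction, brightest first) and as members of the 23 pairs, and others are marked as named after their values were seen. The members and lists were chosen with earlier results of these data known. Alternatives varied the scaling, the filter, an offset of 50 units, the moderation, the arrays in the fit, the probe sets and the threshold. Same-numbered arrays did not deviate together (correlation 0.048, 2 pairs), so the numbers were not treated as pairs.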

Additional observations from a re-analysis of the deposited data

How the results depend on the processing

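The 11832 calls became 11833 with the replicate block (5280 higher, 6553 lower), 10506 to 10877 on leaving out 1 array, 6936 with the filter at the 75th percentile and 4780 with a 2-fold threshold, both of which test or admit fewer probe sets by construction. Leaving out 1 array gave 4808 to 4835 rises and 5690 to 6063 falls. Rises numbered 2855 with poly-A scaling and 2032 at 2-fold, and falls 3385 at the 75th percentile and 2748 at 2-fold. Poly-A scaling kept 2855 of the 5279 rises and 6528 of the 6553 falls, and quantile normalization called 69 probe sets in the opposite direction. List counts on leaving out 1 array were 10 to 11 rises for endoderm, 26 to 28 for mesoderm, 11 for the organizer, 14 to 15 for the neural plate and 18 to 19 for epidermis, with 12 falls for the germ plasm. The Nodal list had 4 falls in place of 7 without stage 11 replicate 2 or stage 9 replicate 1. The oocyte and egg list had 20 falls and 8 to 9 rises on leaving out 1 array, with 4 rises under poly-A scaling and 0 at 2-fold. Medians changed sign with poly-A scaling in the Notch (-0.04), mRNA decay (-0.04), chromatin (-0.01), early transcription regulator (-0.04) and proteasome (-0.20) lists, the last also on leaving out 1 array, where it ranged from -0.01 without stage 11 replicate 1 to 0.04. The cell cycle median was 0.08 with median centring. Poly-A scaling left 15 rises for gastrulation movement, 9 for mRNA decay, 11 for chromatin and 6 for the cell cycle. It left 6 for early transcription regulators, 3 for oxidative phosphorylation, 2 for the proteasome and 0 for DNA replication. The median of the late muscle list, -0.13 over its 3 tested genes, was 0.61 with no filter, 0.07 with the 75th percentile filter and 0.61 with the filter over all 15 stages. These filters change which genes of the list are tested, not the change of a gene. Of 178 genes with values, 3 changed sign, ccna2 (-0.12), npm1 (-0.04) and patl1 (-0.09), all with quantile normalization. With 50 units added, and likewise in the 4-array fit, 8 genes that had not passed did so. The causes were not tested. The median as a floor limits what can be said of genes dim at 1 stage.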

Other observations

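Several further genes were among the largest changes by the naming rule. Of those above the median at stage 9 and under it at stage 11, dnajc9, a co-chaperone of the J-domain family, had 39.3 and 67.6 units at stage 11, against 2015 and 2131 at stage 9 (at least 17.2-fold lower, adjusted p = 5.2e-17). The purine salvage enzyme, hprt1, had 74.1 and 46.9 units at stage 11, against 2004 and 1817 at stage 9 (at least 15.9-fold lower, adjusted p = 5.8e-17). A relative of btg4, btg3, had 78.9 and 63.9 units at stage 11, against 1820 and 1777 at stage 9 (at least 14.9-fold lower, adjusted p = 4.0e-06). In these the stage 9 arrays were far above the median while the stage 11 arrays lay under it. Of the falls measured above the median on all 4 arrays, rcbtb1 had 177 and 161 units at stage 11, against 2399 and 2458 at stage 9 (14.4-fold lower, adjusted p = 1.0e-17). A protein of late cytokinesis, mitd1, had 127 and 127 units at stage 11, against 1517 and 1491 at stage 9 (11.8-fold lower, adjusted p = 3.8e-13). Of the genes under the median at stage 9, ptn, the growth factor pleiotrophin, had 2740 and 3038 units at stage 11, against 105 and 126 at stage 9 (at least 22.2-fold higher, adjusted p = 5.0e-10). Among the neuron markers that passed the filter, syt1, a synaptotagmin, had 360 and 483 units at stage 11, against 12.9 and 10.8 at stage 9 (at least 3.2-fold higher, adjusted p = 2.4e-15). An RNA-binding protein of neurons, elavl3, had 375 and 378 units at stage 11, against 72.7 and 97.9 at stage 9 (at least 2.89-fold higher, adjusted p = 9.7e-05). Both were under the median at stage 9 and above it at stage 11, so they could be tested only through stage 11. Of the 4 tested neuron genes these 2 were higher, 1 was lower (rtn1) and 1 did not pass (chga).

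The frog has a duplicated genome with an L and an S copy of many genes. Of all genes with a single symbol, 1318 had 1 probe set or more tested for each copy. Both copies were higher at stage 11 in 327 and lower in 323, 1 copy alone passed in 411, neither passed in 160, and the copies passed in opposite directions in 97. How far probe sets of 1 copy also detect the RNA of the other was not tested.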
